A study of Rattus norvegicus with 6 samples.

Results

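The cluster of miR-221 and miR-222 was examined in small RNA sequencing of the rat peri-infarct cortex, the tissue around a stroke lesion. Its members were the rows of the count table whose names start with miR-221 or miR-222, which gave 4 of the 493 mature miRNAs listed: rno-miR-221-3p, rno-miR-221-5p, rno-miR-222-3p, and rno-miR-222-5p (rno, for rat, is left out below). All 4 passed the filter on low counts, which kept 452 miRNAs. The libraries came from male Sprague-Dawley rats subjected to a 90 min occlusion of the right middle cerebral artery followed by reperfusion (MCAO). The MCAO group had 3 libraries, from cortex taken 7 days later. The MCAO + rTMS group had 3 libraries, from rats that also received 10 Hz repetitive transcranial magnetic stimulation for 10 min a day on 7 consecutive days. The labels give no day of collection for the stimulated rats, and no sham-operated rats were analysed here, so the levels cannot be set against uninjured cortex.

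A miRNA hairpin is cut into a duplex whose arms are named 5p and 3p after their side of the hairpin. Usually 1 arm is loaded into the silencing complex, where its seed, the bases near the 5′ end, pairs with messenger RNAs, while the other arm is mostly degraded. miR-221 and miR-222 are neighbouring hairpins thought to be made from a common primary transcript. Their 3p arms are known to repress Cdkn1b, a brake on the cell cycle, and Kit, a receptor kinase of endothelial and other cells. They have been studied in vessels, in dividing glia, and in injured axons. The work as a whole asked how miRNAs of the peri-infarct cortex differ after rTMS, and the comparison here asks whether the arms and the neighbours of this cluster moved together.

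The mature sequences show which members can act on the same targets. They are printed 5′ to 3′ from RefSeq, with the seed, bases 2 to 8, in capitals.
miR-221-3p: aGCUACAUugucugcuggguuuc
miR-222-3p: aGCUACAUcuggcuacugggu
miR-221-5p: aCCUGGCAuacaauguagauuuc
miR-222-5p: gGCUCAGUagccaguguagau
miR-221-3p and miR-222-3p carry the same seed, and no other of the 693 rat mature miRNAs in the RefSeq table does. They share their first 8 bases and no longer run, and have the same base at 11 of the 21 positions compared. The seeds of miR-221-5p and miR-222-5p occur in no other mature miRNA of that table, including each other. The lengths are 23 bases for the miR-221 arms and 21 bases for the miR-222 arms.

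In the GRCr8 assembly of RefSeq, the hairpin of miR-222 lies at chrX:6022621-6022723 and that of miR-221 at chrX:6023182-6023290, both on the plus strand and 458 bases apart. Both overlap the same 2 long non-coding RNA loci. Whether they lie in an exon or an intron was not determined. The count table carries no coordinates, and none were taken from it.

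Total counts were between 10492610 and 15411620 per library. The TMM factors that scale these totals were 1.16 to 1.39 in the MCAO group and 0.695 to 0.864 in the MCAO + rTMS group, without overlap. The 10 most abundant miRNAs took 67.7% to 70.4% of the reads in the MCAO group and 72.4% to 77.0% in the MCAO + rTMS group. Levels are given as CPM, the read count relative to the scaled library total. Over the 452 tested miRNAs TMM factors gave a median log2 fold change, MCAO + rTMS against MCAO, of -0.21, and library totals alone gave -0.80. Single levels therefore move with the scaling, whereas ratios within a library do not. The median GC content was 47.8% over the 414 tested miRNAs with a RefSeq sequence, and Spearman's rho between GC content and log2 fold change across these miRNAs was 0.29, with all values from the same 6 libraries. The neuronal miRNAs miR-124-3p, miR-9a-5p, miR-128-3p, miR-138-5p, miR-137-3p, and miR-218a-5p summed to between 327327 and 615444 CPM in the 6 libraries, as in brain tissue. The liver miRNA miR-122-5p stayed between 2.48 and 29.6 CPM.

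The members with the shared seed moved in opposite directions. miR-221-3p fell and miR-222-3p rose in the MCAO + rTMS group, each by 1.77-fold in the fit. The member of the pair with more reads changed from miR-221-3p to miR-222-3p. Reads of different miRNAs were compared as counted, without calibration to molecules. The summed level of the pair did not pass the test. In the miR-221 hairpin the level of the 5p arm did not pass the test either, although its 3p arm fell. In the miR-222 hairpin the rare 5p arm rose as its 3p arm did.

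miR-221-3p was at 2972, 2876, and 4308 CPM in MCAO replicates 1, 2, and 3, and at 2034, 2378, and 1339 CPM in MCAO + rTMS replicates 1, 2, and 3. Each stimulated library was below each MCAO library, and MCAO replicate 3 and MCAO + rTMS replicate 3 lay farthest apart. The means were 3385 ± 800 CPM (SD, n = 3) and 1917 ± 529 CPM (SD, n = 3). This was a log2 fold change of -0.82, with a standard error of 0.27, a 95% interval of -1.45 to -0.19, and a Benjamini-Hochberg adjusted p = 0.036 in the quasi-likelihood test of edgeR. The call was close to the threshold. It was lost without MCAO replicate 1 (adjusted p = 0.061), MCAO replicate 2 (0.065), MCAO replicate 3 (0.133), MCAO + rTMS replicate 1 (0.073), or MCAO + rTMS replicate 3 (0.068), at log2 fold changes between -0.92 and -0.58 in the same edgeR test, and with RLE factors (adjusted p = 0.0501).

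miR-222-3p was at 2173, 2495, and 3590 CPM in MCAO replicates 1, 2, and 3, and at 3898, 5598, and 5105 CPM in MCAO + rTMS replicates 1, 2, and 3. The groups did not overlap, with a narrow gap between MCAO replicate 3 and MCAO + rTMS replicate 1. The means were 2752 ± 743 CPM (SD, n = 3) and 4867 ± 874 CPM (SD, n = 3). The log2 fold change, 0.82, was positive (standard error 0.25, 95% interval 0.25 to 1.40, adjusted p = 0.026 in the same edgeR test). The call was lost without MCAO replicate 1 (adjusted p = 0.089), MCAO replicate 2 (0.096), or MCAO + rTMS replicate 2 (0.067), at log2 fold changes between 0.68 and 0.76. It was also lost with library totals only, where the log2 fold change was 0.16 (adjusted p = 0.642, edgeR), and with upper-quartile factors, where it was 0.52 (adjusted p = 0.116, edgeR).

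miR-221-5p, the arm of its hairpin with fewer reads, was at 168, 170.0, and 171 CPM in MCAO replicates 1, 2, and 3. In MCAO + rTMS replicates 1, 2, and 3 it was at 187, 245, and 153 CPM. The MCAO libraries lay close together, and the stimulated libraries lay on either side of them. The log2 fold change of 0.20 (standard error 0.21, 95% interval -0.29 to 0.69, adjusted p = 0.444, edgeR) did not pass the test, and its sign turned with library totals only, at -0.41, and with upper-quartile factors, at -0.099.

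miR-222-5p was rare, with 23, 13, and 21 reads in MCAO replicates 1, 2, and 3 and 39, 37, and 39 reads in MCAO + rTMS replicates 1, 2, and 3. The smallest count above 0 anywhere in the table was 10, so this arm sat near the limit of what was listed. The exact Poisson 95% interval ran from 6.92 to 22.2 for 13 reads and from 27.7 to 53.3 for 39 reads. Such intervals cover counting error only, since reads amplified by PCR are not independent molecules. As levels the MCAO libraries averaged 1.28 ± 0.198 CPM (SD, n = 3). The MCAO + rTMS libraries averaged 3.28 ± 0.451 CPM (SD, n = 3), without overlap. On the log2 scale the difference was 1.34 (standard error 0.34, adjusted p = 0.013, edgeR). The call was lost with library totals only (log2 fold change 0.70, adjusted p = 0.135, edgeR) and without MCAO + rTMS replicate 2 (1.41, adjusted p = 0.058).

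**Figure D1:**
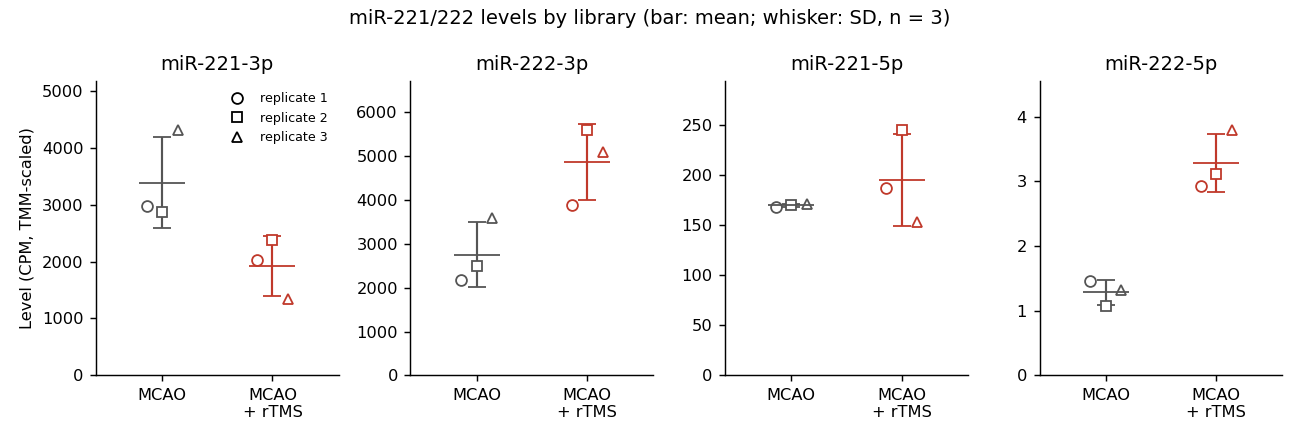
Level of each member in CPM of the TMM-scaled total, on a linear axis that starts at 0 for each member, with MCAO libraries in grey and MCAO + rTMS libraries in red. Open symbols are libraries by replicate number, the horizontal bar is the mean, and the whisker is the SD (n = 3). The groups are separate for miR-221-3p (lower with rTMS), miR-222-3p, and miR-222-5p (higher), and overlap for miR-221-5p.

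In all, 3 of the 4 members had an adjusted p under 0.05 in the edgeR test, with 1 lower and 2 higher in the MCAO + rTMS group. Calls were common in these libraries. Of all tested miRNAs, 55.3% were called, 27.2% higher and 28.1% lower, and the groups did not overlap in 66.8%, so the count of members called is near what 4 miRNAs of this table would show. An exact two-sided permutation test of 3 libraries against 3 cannot go below p = 0.1, and it gave 0.1 for each of the 3 called members and 0.6 for miR-221-5p. The p-values measure the spread between these libraries, and the labels do not say whether each library came from a single rat. In tissue, fewer cells of a type and less of a miRNA per cell cannot be told apart.

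A scaling shifts all log2 fold changes by nearly the same amount, so distances from the median of all tested miRNAs hardly depend on it. That these distances held across the scalings is therefore no separate support for the directions. With TMM factors, miR-221-3p was at -0.61 and miR-222-3p at 1.03 from that median on the log2 scale. With library totals only, they were at -0.64 and 0.97. miR-221-5p was above the median by 0.41 and 0.39 under the same scalings, and was not tested against it.

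**Figure D2:**
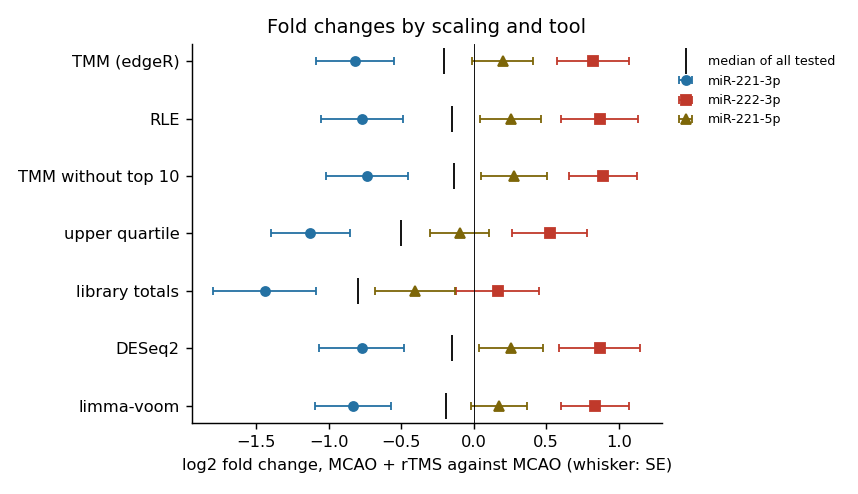
log2 fold change of miR-221-3p (circles), miR-222-3p (squares), and miR-221-5p (triangles), MCAO + rTMS against MCAO, under 7 scalings or tools, with standard errors as whiskers. Black ticks mark the median of all tested miRNAs, which shifts from -0.21 (TMM) to -0.80 (library totals). The order of the 3 members around it stays the same in all 7. A scaling moves members and median together, so this order is no separate support.

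The share of miR-222-3p among the reads of the shared-seed pair needs no scaling. In MCAO replicates 1, 2, and 3 it was 42.2%, 46.4%, and 45.5%, from between 65097 and 126089 reads of the pair. In MCAO + rTMS replicates 1, 2, and 3 it was 65.7%, 70.2%, and 79.2%, from between 66308 and 94597 reads. miR-222-3p thus had the minority of the pair's reads in every MCAO library and the majority in every stimulated library. The Wilson 95% intervals were narrow, for example 41.9% to 42.6% in MCAO replicate 1 and 78.9% to 79.5% in MCAO + rTMS replicate 3. The mean shares were 44.7% ± 2.20 (SD, n = 3) and 71.7% ± 6.88 (SD, n = 3), with the wider spread among the stimulated libraries.

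As a log2 ratio of counts, miR-222-3p to miR-221-3p averaged -0.31 ± 0.13 (SD, n = 3) in MCAO libraries. In MCAO + rTMS libraries it averaged 1.37 ± 0.51 (SD, n = 3), without overlap, as for 56.8% of the 451 miRNAs set against miR-221-3p in this way. The difference was 1.67 (standard error 0.37, 95% interval 0.82 to 2.53). It passed the test in limma fitted to the ratio of every other tested miRNA to miR-221-3p, with adjusted p = 0.0095 over 451 miRNAs, of which 39.7% were called and 33.3% called higher. It also passed in all 9 alternatives run, with differences between 1.39 and 1.89 and adjusted p between 0.00088 and 0.044 in limma. The exact permutation test gave p = 0.1, the smallest possible.

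The sum of miR-221-3p and miR-222-3p gives the level of reads with the shared seed. It was 5145, 5371, and 7897 CPM in MCAO replicates 1, 2, and 3 and 5933, 7975, and 6445 CPM in MCAO + rTMS replicates 1, 2, and 3. The groups overlapped over most of their range. Fitted as 1 feature, the sum had a log2 fold change of 0.15 (standard error 0.22, 95% interval -0.36 to 0.66, adjusted p = 0.596, edgeR). Changes within that interval were not excluded. The sign turned with library totals only, at -0.50 (adjusted p = 0.162, edgeR), with upper-quartile factors, at -0.18, and with a mean count above 200 required, at -0.012.

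The arms of the miR-221 hairpin shifted against each other. miR-221-5p made up 5.35%, 5.58%, and 3.81% of the hairpin's reads in MCAO replicates 1, 2, and 3. In MCAO + rTMS replicates 1, 2, and 3 it made up 8.41%, 9.33%, and 10.3%. The 3p arm thus kept most of the hairpin's reads in every library. The 5p share was higher in every stimulated library than in any MCAO library. The mean share was 4.91% ± 0.961 (SD, n = 3) without rTMS and 9.33% ± 0.928 (SD, n = 3) with it. The log2 ratio of 5p to 3p differed by 1.01 (standard error 0.26, 95% interval 0.38 to 1.63, adjusted p = 0.022 in limma over the 138 hairpins with both arms tested). The call was lost without MCAO replicate 1 (adjusted p = 0.053), MCAO replicate 3 (0.067), or MCAO + rTMS replicate 2 (0.068), at differences between 0.83 and 1.08.

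In the miR-222 hairpin the shift was not resolved. miR-222-5p made up between 0.0366% and 0.0674% of the reads in the MCAO group and between 0.0557% and 0.0752% in the MCAO + rTMS group, with overlap between the groups. The log2 ratio of 5p to 3p differed by 0.50 (standard error 0.31, 95% interval -0.26 to 1.26, adjusted p = 0.264 in limma). The interval includes both 0 and the difference seen in the miR-221 hairpin, and the hairpins were not tested against each other. Among the 138 hairpins the arm ratio was called in 42.8%, 23.2% in the direction of more 5p, and its groups did not overlap in 52.2%, and by size of the difference miR-221 ranked 77 and miR-222 ranked 97.

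**Figure D3:**
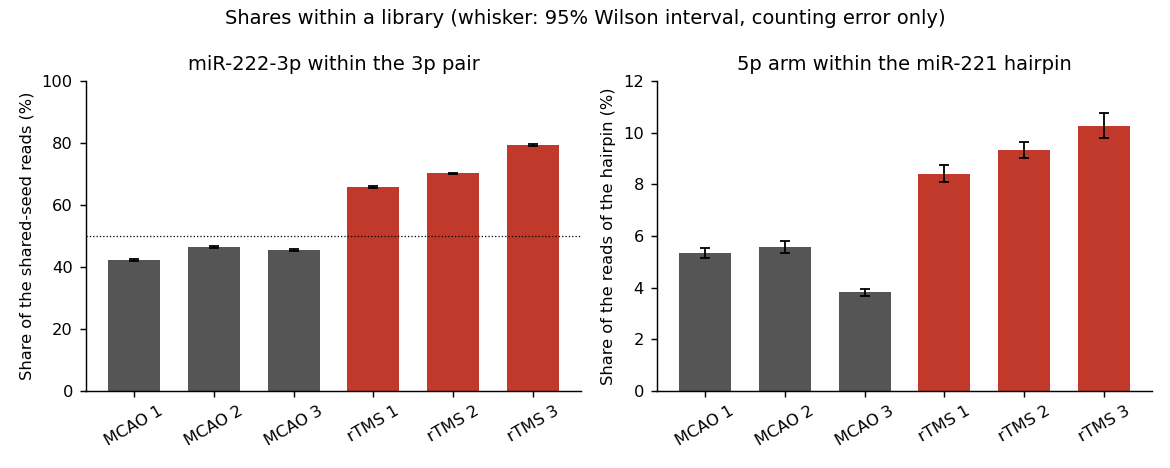
Left, miR-222-3p as a percentage of the reads of miR-222-3p and miR-221-3p in each library, with a dotted line at equal shares. Right, miR-221-5p as a percentage of the reads of both miR-221 arms. Grey bars are MCAO and red bars MCAO + rTMS libraries (written rTMS on the axis), numbered by replicate, and whiskers are Wilson 95% intervals for counting error. All 3 stimulated libraries stand above all 3 MCAO libraries in each panel.

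**Figure D4:**
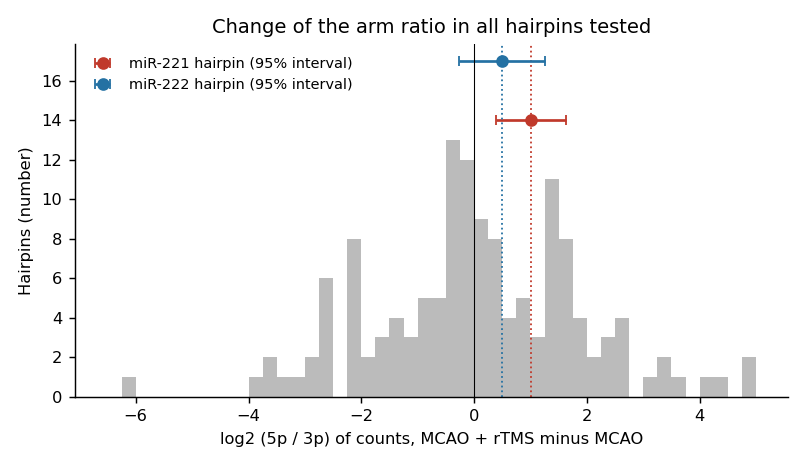
Histogram of the difference in log2 (5p / 3p) between MCAO + rTMS and MCAO for the 138 hairpins with both arms tested. Points with 95% intervals mark the miR-221 hairpin (1.01) and the miR-222 hairpin (0.50), placed at arbitrary heights, and both lie inside the spread of the other hairpins.

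Within the MCAO group replicate 3 was the highest library for both miR-221-3p and miR-222-3p. It was above the group mean by 0.37 for miR-221-3p and by 0.42 for miR-222-3p on the log2 scale. Replicates 1 and 2 were below the mean for both but in opposite order. They were at -0.16 and -0.21 for miR-221-3p and at -0.31 and -0.11 for miR-222-3p. In the MCAO + rTMS group replicate 2 was again above the mean for both, by 0.35 and 0.22. The other stimulated libraries parted them. Replicate 1 was at 0.13 for miR-221-3p and -0.30 for miR-222-3p, and replicate 3 at -0.48 and 0.085. miR-221-5p did not share the MCAO spread of its own 3p arm, since its deviations in that group lay between -0.015 and 0.010. With 3 libraries a group, these are descriptions, and no correlation was computed.

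Across the 6 libraries miR-222-3p was far from the miRNAs most like miR-221-3p. Likeness was measured as the SD over the libraries of the log2 ratio of counts to miR-221-3p, among 285 tested miRNAs with a mean count above 200. The smallest SDs were those of miR-29b-5p (0.16), miR-505-3p (0.21), miR-421-3p (0.21), miR-874-3p (0.21), and miR-365-3p (0.23). miR-221-5p, cut from the same hairpin, ranked 104 with an SD of 0.60, and miR-222-3p ranked 193 with an SD of 0.98. In these libraries neither the partner arm nor the neighbour with the same seed was among the miRNAs closest to miR-221-3p. The SD spans both groups, so it includes the group difference and is no separate result on how the members varied together. The 5 closest miRNAs had log2 fold changes between -1.02 and -0.62.

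Other neighbouring miRNA genes were compared in the same way as a background. In RefSeq, 151 pairs of tested miRNAs with a mean count above 200 came from the same arm of different hairpins. Their mature sequences start within 10 kb of each other on the same strand, and names found at several loci were left out. The log2 fold changes of miR-221-3p and miR-222-3p differed by 1.64, against a median difference of 1.11, and the pair ranked 44 of the 151. In 28 pairs, this one included, the miRNAs were called in opposite directions by edgeR. Only 6 pairs shared a seed, and in these the difference was largest for miR-221-3p and miR-222-3p, followed by let-7b-3p and let-7c-2-3p at 1.36. The row of let-7c-2-3p has the same counts as that of let-7a-1-3p, so its reads cannot be assigned to the neighbour of let-7b. It was smallest, at 0.24, for miR-450a-5p and miR-450b-5p. The pairs share miRNAs and libraries and were not tested as a set. Many link the same miRNAs of a few crowded stretches, with miR-369, miR-485, miR-154, and miR-323 recurring among the opposite calls. The rank and the 28 pairs are therefore largely a comparison with those stretches.

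**Figure D5:**
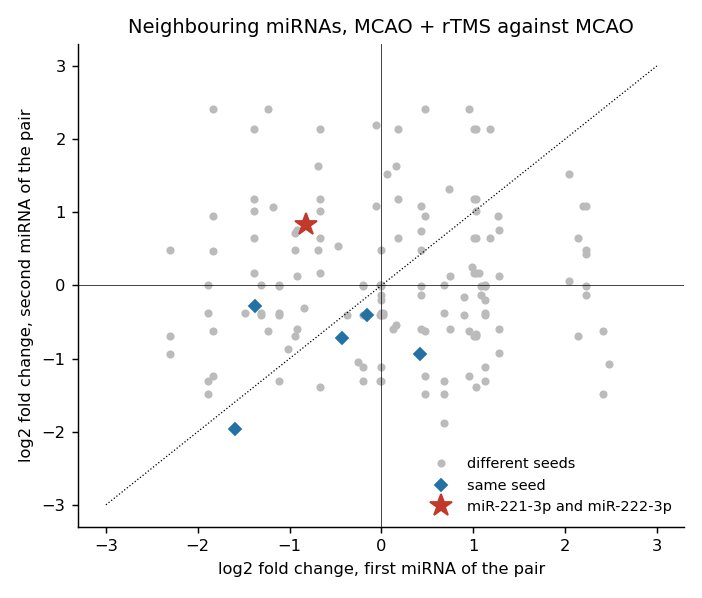
log2 fold changes, MCAO + rTMS against MCAO, of the miRNAs in each of the 151 neighbouring pairs, the alphabetically first name on the horizontal axis. Grey dots are pairs with different seeds, blue diamonds the other 5 pairs with a shared seed, the star is miR-221-3p (-0.82) with miR-222-3p (0.82), and the dotted line marks equal change. The star lies far from that line, in the quadrant where the first miRNA is lower and the second higher.

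The cell types in which the cluster has been studied were followed through lists of other miRNAs. The counts below stand beside the 55.3% of all tested miRNAs that were called, 27.2% higher and 28.1% lower, and call nothing particular to a list. Of the 6 tested miRNAs of endothelium and vessel wall, 1 rose and 2 fell, with a median log2 fold change of -0.41 beside -0.21 over all tested miRNAs. The riser was miR-143-3p, a miRNA of smooth muscle (log2 fold change 1.07, adjusted p = 0.020, edgeR). The other arm of its hairpin, miR-143-5p, fell (-0.74, adjusted p = 0.023, edgeR), with an MCAO mean of 7.80 CPM. No member of the list was called higher with library totals only, upper-quartile factors, or the equal-variance two-sample test. The same held without MCAO replicate 2 or without MCAO + rTMS replicate 1. Without MCAO replicate 2, 1 miRNA of the list was called in place of 3. The endothelial miR-126a-5p fell (-1.22, adjusted p = 0.0041, edgeR). The summed level of the list was 4973 to 9801 CPM in the MCAO group and 6382 to 9617 CPM in the MCAO + rTMS group, with overlap.

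Of the 7 tested miRNAs of microglia and inflammation, 4 fell and none rose, with a median of -1.17, where 28.1% of all tested miRNAs fell. Without MCAO replicate 1, MCAO replicate 2, MCAO + rTMS replicate 1, or MCAO + rTMS replicate 2, 2 were called. Among the 4 that fell was miR-155-5p, which promotes inflammatory responses (log2 fold change -1.17, adjusted p = 0.0064, edgeR). miR-223-3p and miR-142-3p, also among the 4, were at low levels, with MCAO means of 11.7 and 4.49 CPM. With a mean count above 200 required, 4 miRNAs of the list were tested, 3 fell, and the median was -0.65. The summed level of the list was 4699 to 5663 CPM in the MCAO group and 3549 to 4691 CPM in the MCAO + rTMS group, which nearly met. That sum came mainly from miRNAs that were not called. Of the 3 tested oligodendrocyte miRNAs, 2 rose and none fell, with a median of 0.75. The uncalled miRNA, miR-338-3p, was at -0.73 (adjusted p = 0.060, edgeR), in the other direction. The 4 oligodendrocyte miRNAs listed, including the untested miR-219a-5p, summed to 788 to 1062 CPM in the MCAO group and 1275 to 2576 CPM in the MCAO + rTMS group. With library totals only, none of the 3 tested rose and 1 fell. In the list 1 also fell with upper-quartile factors, with a mean count above 200 required, and without MCAO replicate 2 or MCAO replicate 3. The number called was 0 without MCAO + rTMS replicate 2 or under the two-sample test, and 1 without MCAO replicate 1 or MCAO + rTMS replicate 1. Of the 8 miRNAs linked to axon and neurite growth, 4 fell and none rose, with a median of -0.73, beside the same 28.1%. Without MCAO replicate 1, MCAO replicate 2, or MCAO + rTMS replicate 2, 2 were called. An example is miR-138-5p, known to restrain axon growth (-1.65, adjusted p = 0.00045, edgeR). Over 17 alternatives the number called ranged from 2 to 7 for the microglial list and from 2 to 8 for the axonal list. Of the 6 neuronal miRNAs, 1 rose and 2 fell, with a median of -0.49, while with library totals only none rose and 5 fell.

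miRNAs of other tissues were read against the same background of 27.2% higher and 28.1% lower. Of the 6 muscle miRNAs 3 rose and 3 fell, with a median of 0.42, and their sum was 145 to 209 CPM in the MCAO group and 390 to 540 CPM in the MCAO + rTMS group. Of the 3 tested red blood cell miRNAs 1 rose and 2 fell, with a median of -1.55, and the sums were 301 to 493 CPM and 592 to 685 CPM. Only miR-486 rose, from a mean of 170.0 CPM in the MCAO group to 561 CPM in the MCAO + rTMS group. Between the same groups the means of miR-16-5p fell from 186 to 63.5 CPM and those of miR-451-5p from 31.5 to 10.3 CPM. The liver miRNA miR-122-5p did not pass the test (log2 fold change -0.23, adjusted p = 0.826, edgeR). Without MCAO replicate 2 it was called higher, at 1.47, and the sign also turned with limma-voom (0.61), the equal-variance two-sample test (0.41), and the replicate block (0.55). The part of these cell types, of the scaling, and of GC content in the shifts of the cluster was not tested. GC content was 47.8% for miR-221-3p, 52.4% for miR-222-3p and miR-222-5p, and 39.1% for miR-221-5p.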

How the data were processed

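The authors deposited raw read counts per mature miRNA for 6 small RNA libraries, made with the NEBNext small RNA kit and sequenced on an Illumina HiSeq, and a selection of 73 miRNAs with the same counts, which was used only for that check. The submitters' processing notes name bcl2fastq, BWA, DESeq2, and rn6 without their roles. The miRNA database and the rule for reads matching several miRNAs are not given in the sources used here. The table holds 493 miRNAs, 286 of its 2958 counts are 0, and none lies between 0 and 10.

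Groups and replicate numbers came from the sample titles. Rows were filtered by filterByExpr (452 kept), scaled with TMM factors, and compared with edgeR 4.0.16 (quasi-likelihood, no block) in R 4.3.3. P-values were adjusted over all 452. A standard error is the log2 fold change divided by the square root of F. Log2 ratios were taken after adding 0.5 to each count and tested in limma 3.58.1. The fits were checked on simulated counts. The study names a two-sample test, which was run as an alternative, as were other scalings, DESeq2 1.42.0, limma-voom, other filters, the block, and each library left out. The fits of miR-222-5p and of the summed seed, the ratio in the miR-222 hairpin, the neighbouring pairs, GC content, likeness to miR-222-3p, and a fit with 9 in place of each 0 were chosen after the table had been read. The members and lists were chosen with earlier results of these data known.

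The 3 members listed at the outset and the 5 miRNAs most like miR-221-3p were named by rule, and miR-222-5p because its name matches. At most 3 miRNAs per list, by lowest adjusted p, could be named with values. Lists covered neurons (6 miRNAs), oligodendrocytes (4), microglia and inflammation (8), endothelium and vessel wall (6), axon and neurite growth (8), red blood cells (5), muscle (6), and liver (1). Sequences, hairpin positions, and neighbours are from RefSeq, GRCr8, which gave a sequence for 414 of the 452. Figures used matplotlib 3.10.9.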

Additional observations from a re-analysis of the deposited data

How the results depend on the processing

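The ratio of miR-222-3p to miR-221-3p kept its direction and its call in all 9 alternatives, and was 1.39 to 1.89 when 1 library was left out. miR-221-3p stayed lower in all 17 alternatives, with the call in 8, and miR-222-3p stayed higher in all 17, with the call in 11. For miR-221-3p the call was lost with RLE factors (log2 fold change -0.77), TMM factors without the 10 most abundant miRNAs (-0.74), and the equal-variance two-sample test (-0.84), and the range was -0.96 to -0.58 with 1 library left out. For miR-222-3p it was lost with library totals only (0.16), upper-quartile factors (0.52), and the two-sample test (0.84), and the range was 0.68 to 1.09. miR-222-5p lost its call with library totals only (0.70) and had a range of 1.23 to 1.45. It could not be fitted with a mean count above 200 required. The sign turned with library totals only and upper-quartile factors for miR-221-5p (-0.41 and -0.099) and for the summed seed (-0.50 and -0.18), and for the sum with a mean count above 200 (-0.012). None of these signs belonged to a called value. The ratio of the miR-221 arms ranged from 0.83 to 1.12 with 1 library left out. The 3 members called became 1 with library totals only, the two-sample test, and the block, and 1 to 2 with 1 library left out. Over all miRNAs, 250 were called, and 179 to 263 in the alternatives. Apart from the scaling shift of the median, the cause of these changes was not tested.

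No pairing of the libraries by replicate number was evident, though so few libraries cannot exclude one. The correlation of deviations between same-numbered libraries was 0.20, -0.12, and -0.11, and not every library correlated best with its own number. With the replicate block, 180 miRNAs were called, 1 of them a member, and the call was lost for miR-221-3p (-0.83), miR-222-5p (1.35), and the ratio of the miR-221 arms (1.01), and kept for miR-222-3p and its ratio to miR-221-3p.

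The depth limits miR-222-5p, at 13 to 39 reads a library, and not the other members.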

Other observations

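The miRNAs most like miR-222-3p by the same measure, the SD over the 6 libraries of the log2 ratio of counts, were looked up after the values had been seen. They were miR-28-3p (SD 0.17), miR-668 (0.18), miR-433-3p (0.18), miR-760-3p (0.21), and miR-351-5p (0.21), and none of these was among the 5 closest to miR-221-3p. miR-221-5p ranked 58 of 285 by likeness to miR-222-3p (SD 0.49), against 104 by likeness to miR-221-3p, the other arm of its own hairpin. These SDs also include the group difference.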
